A study of Mus musculus with 6 samples.

Results

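The basement membrane genes *Hspg2*, *Agrn*, *Lama1*, *Lama5*, *Lamb1*, *Lamc1*, *Col4a1*, *Col4a2*, *Nid1* and *Bcam* were described in mouse embryonic stem cells after knockdown of *Son*. These 10 genes were chosen by name, out of 9844 genes with an intron listed in all 4 total RNA libraries, with results of the same comparison in view. Their values for control against knockdown are therefore a description, with no test of the genes as a group. The cells were of the E14 line (129/Ola background), grown with serum and leukemia inhibitory factor. A control siRNA or a siRNA against *Son* was given with Lipofectamine2000, and RNA was taken 24 hours later with TRIzol. After removal of ribosomal RNA, total RNA of 2 control and 2 knockdown samples was sequenced. Nanopore cDNA reads of polyadenylated RNA came from 1 sample per treatment. Nothing in the labels says that the replicates came from separate cultures, so the spread between them may be technical.

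Basement membranes are thin sheets of extracellular matrix on which epithelia and early embryonic cell layers rest. Laminins, each built of an α, a β and a γ chain, assemble into a network at the cell surface, collagen IV forms another network, and nidogen and the heparan sulfate proteoglycans perlecan and agrin bind to these networks. Embryonic stem cells and the inner cell mass make laminin chains, collagen IV and perlecan before the first basement membrane of the embryo forms. *Son* codes for a large protein of nuclear speckles that takes part in pre-mRNA splicing.

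Splicing was read at the junctions of each intron. A read that crosses a junction is split if the intron is removed and unsplit if it runs on into the intron, and the splicing efficiency of an intron is the fraction of split reads over both of its junctions. The libraries held between 10556187 and 16012286 split reads at 5′ junctions. *Son* itself had 283 and 314 spliced reads on the CPM scale (counts scaled to the library total) in the controls against 93.5 and 102 in the knockdown, so *Son* RNA was still present at 0.328 times the control level. Of 10 fixed markers of pluripotent stem cells, 9 were listed, with a summed level of 4959 to 5041 CPM in controls and 4775 to 4977 in the knockdown. Of 15 markers of extraembryonic endoderm, a lineage that secretes much basement membrane, 2 were listed with a summed level of 2.89 to 3.82 CPM over all libraries. In the long reads the 15 genes had 58 reads in the control and 31 in the knockdown, with *Gata4* (13 and 4), *Dab2* (13 and 7), *Apoa1* (12 and 4) and *Srgn* (11 and 4) highest, and 6 of them, the defining *Gata6*, *Sox17* and *Foxa2* included, at 0. The part of such cells in the results was not tested. The fibroblast markers gave 1 of 10 listed, at 1.16 to 2.17 CPM, and 9 of the 10 had 0 long reads, *Col1a1* among them.

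The members had 362 introns listed in all 4 libraries, and the 336 with no fewer than 10 split and 10 unsplit reads in all were tested. An intron is called lower here when edgeR's quasi-likelihood test on split and unsplit reads gave a Benjamini-Hochberg adjusted p under 0.05 over all 63309 introns tested and the knockdown had the higher ratio of unsplit to split reads. Of the 336 introns, 46 (13.7%) were called lower, against 1.71% of all tested introns, a comparison that the choice of the genes already contains. With all 4 libraries none was called higher by edgeR or DESeq2, against 0.0442% of all tested introns by edgeR. At an unadjusted p under 0.05 edgeR gave 118 lower and 1 higher. All 46 lay in 4 genes: 24 in *Hspg2*, 10 in *Agrn*, 8 in *Bcam* and 4 in *Lama5*. *Lama1*, *Lamb1*, *Lamc1*, *Col4a1* and *Nid1* had none called among 129 tested introns by either tool, with 2 at an unadjusted p under 0.05, and *Col4a2* had no intron with enough reads to test. Mean splicing efficiency over the members' 362 introns was 0.952 and 0.946 in the controls against 0.924 and 0.913 in the knockdown, while over all introns it was 0.903 and 0.893 in the controls against 0.893 and 0.875 in the knockdown.

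The count, and in part which introns were called, depended on the libraries and on the method. It fell to 9 without control replicate 1, to 27 without control replicate 2 and to 30 without knockdown replicate 2, and came to 47 without knockdown replicate 1. The 3′ junction alone gave 22, the 5′ junction alone 11, and DESeq2 17.

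**Figure D1:**
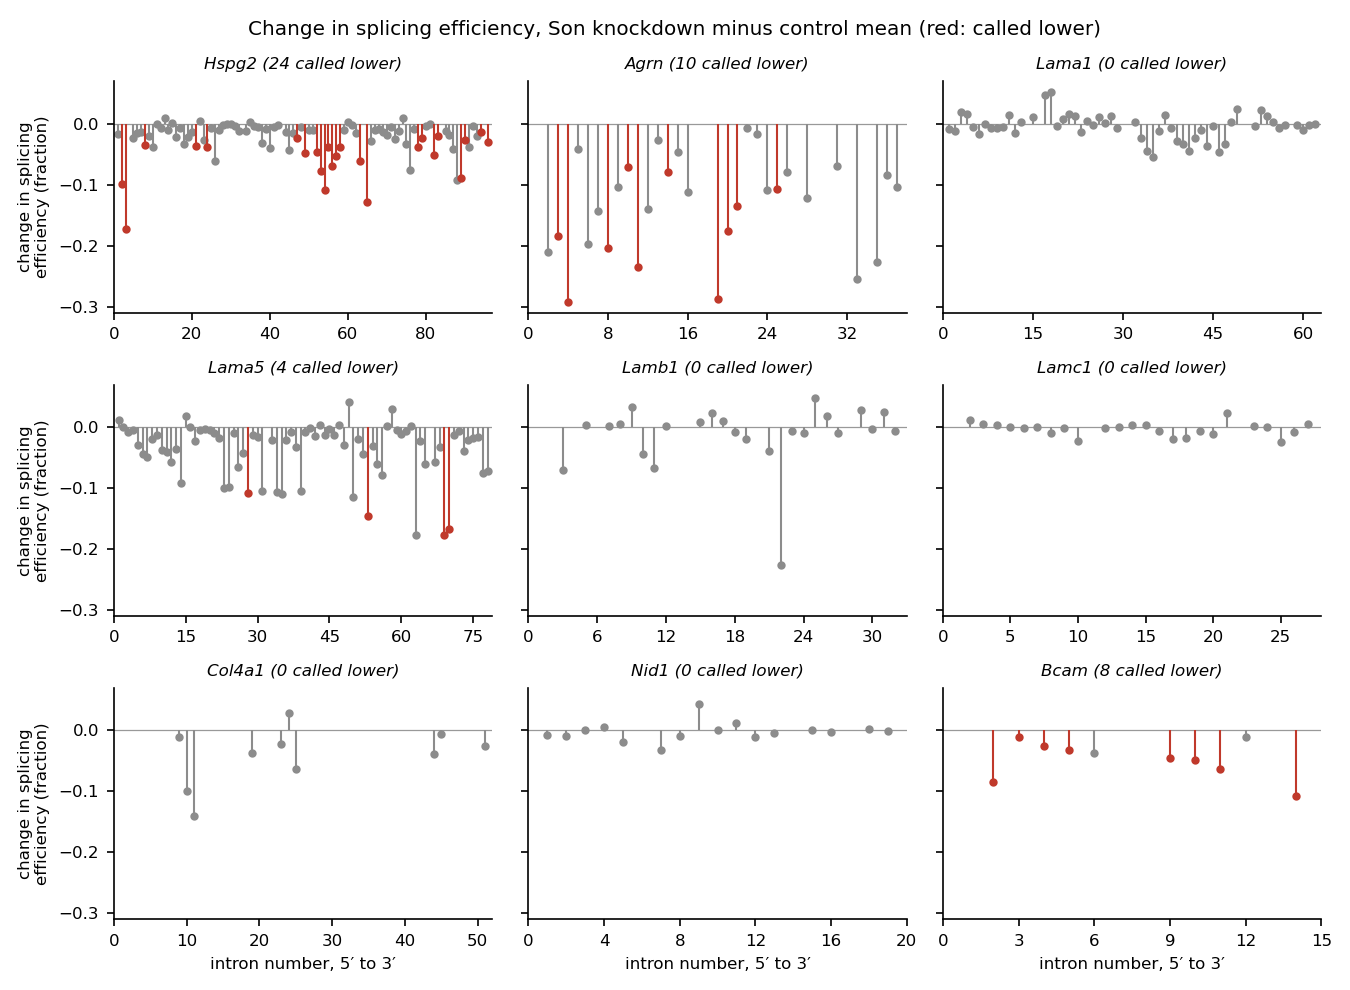
Change in splicing efficiency (knockdown mean minus control mean, as a fraction) of each tested intron against its number from the 5′ end of the gene, 1 panel per gene. Red points are introns called lower, grey points are not called, *Col4a2* had no tested intron, and 1 tested intron each of *Hspg2* and *Agrn* has no number and is not drawn. The red points lie along the whole of *Hspg2*, in the first 25 introns of *Agrn*, and on most introns of *Bcam*.

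*Hspg2* codes for perlecan, the main secreted heparan sulfate proteoglycan of basement membranes. Its gene (ENSMUSG00000028763, chromosome 4, plus strand) has 96 introns in the transcript used for numbering, and 94 introns were listed. Mean splicing efficiency over them was 0.969 and 0.964 in the controls against 0.948 and 0.933 in the knockdown. Both knockdown libraries lay below both controls for this mean, and likewise for 64 of the 91 tested introns. The same was seen in 24.3% of all tested introns. Summed over the gene, the log2 odds ratio of unsplit to split reads was 1.12 (standard error 0.193), and the gene was called lower, as were 4 of 9 members and 6.98% of all genes. No member gene was called higher by edgeR (0.128% of all genes) or DESeq2, also at an unadjusted p under 0.05. Without control replicate 1 it was 0.93 and no longer called.

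Calls in *Hspg2* were found along the whole gene: split into 3 equal stretches of numbered introns from the 5′ end, they came to 5 of 31, 10 of 29 and 9 of 30 tested introns. The longest run of neighbouring calls held 7 introns, numbers 52 to 58 (GRCm39, chr4:137269088-137271898). Mean splicing efficiency of these 7 introns lay between 0.962 and 0.989 in the controls and between 0.881 and 0.945 in the knockdown. The count of 24 became 3 without control replicate 1, 15 without control replicate 2, 26 without knockdown replicate 1 and 16 without knockdown replicate 2.

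Within this run, intron 54 (91 nt, chr4:137269959-137270049) changed most. Its splicing efficiency was 0.998 and 0.980 in the controls against 0.889 and 0.873 in the knockdown, and its unsplit reads went from 2 and 16 to 86 and 71. The groups did not overlap, and the log2 odds ratio was 3.88 (standard error 0.473). It was 2.73 without control replicate 1 and 6.28 without control replicate 2, called in both cases, and 4.31 and not called with DESeq2. Intron 11 of the same gene has the same length of 91 nt. It had values of 0.987 and 0.987 in the controls against 0.986 and 0.987 in the knockdown, so here the groups overlapped. It was chosen for this contrast after its values were seen.

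The exon ends joined by some introns are shown to set introns called lower and not called side by side. Each line gives 30 bases of coding exon before and 30 after the intron in the spliced transcript, read 5′ to 3′ from GENCODE M21 (GRCm38) by transcript identifier, with the last 3 bases of the upstream exon and the first 3 of the downstream exon in capitals.
Hspg2 intron 54, called lower: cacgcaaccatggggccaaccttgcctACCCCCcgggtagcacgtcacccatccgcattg
Hspg2 intron 11, not called: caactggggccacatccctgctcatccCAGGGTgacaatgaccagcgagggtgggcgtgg
Hspg2 intron 2, called lower: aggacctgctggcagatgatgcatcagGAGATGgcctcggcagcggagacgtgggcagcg
Agrn intron 4, called lower: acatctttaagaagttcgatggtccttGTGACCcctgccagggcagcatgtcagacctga
Lama5 intron 69, called lower: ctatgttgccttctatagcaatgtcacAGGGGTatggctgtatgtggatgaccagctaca
Lamc1 intron 7, not called: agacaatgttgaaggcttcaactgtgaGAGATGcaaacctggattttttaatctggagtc
Lamc1 intron 9, not called: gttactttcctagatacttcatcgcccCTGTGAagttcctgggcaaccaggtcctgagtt
An exon end in AG is the most common one before an intron and pairs with U1 small nuclear RNA. On the strand of the gene, 57.6% of all tested introns with a known exon end followed an exon that ends in AG, against 50.1% of the members' introns. Among called introns of the members the share was 47.8% of 46, against 50.5% of those not called. By gene it was 70.8% of 24 called introns in *Hspg2*, 10% of 10 in *Agrn*, 50% of 8 in *Bcam* and 0% of 4 in *Lama5*. Among introns not called it was 51.5%, 50%, 0% (of 2) and 48.6% in the same order. Over all tested introns it was 53% of those called lower and 57.7% of the others. The calls thus fell on introns with and without this exon end, and intron 2 of *Hspg2*, called lower, and intron 7 of *Lamc1*, not called, share the same 6 exon bases.

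The other *Hspg2* introns with the largest falls were numbers 3, 65, 2 and 88. Intron 3 (5480 nt, chr4:137229632-137235111) had a splicing efficiency of 0.951 and 0.942 in the controls against 0.877 and 0.673 in the knockdown. Its knockdown libraries differed from each other by more than knockdown replicate 1 differed from the controls. The rise in unsplit reads was at the 5′ junction, from 23 in both controls to 82 in both knockdown libraries, while the 3′ junction had 8 and 5. At the 3′ junction alone the log2 odds ratio was 0.11, against 2.23 with both junctions. The call was lost without knockdown replicate 2 (1.33), without control replicate 1 (2.09) and without control replicate 2 (2.35), and also at the 5′ junction alone (2.53) and with DESeq2 (2.23).

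Intron 65 (301 nt, chr4:137276989-137277289) had 0.953 and 0.933 in the controls against 0.855 and 0.776 in the knockdown. Intron 2 (1081 nt, chr4:137228506-137229586) had 0.983 and 0.977 in the controls against 0.901 and 0.861 in the knockdown. In both introns each knockdown library was below each control, and neither was called without control replicate 1 (log2 odds ratios of 1.61 and 2.47, against 1.89 and 2.71 with all libraries). Intron 88 (314 nt, chr4:137292326-137292639) had 0.914 and 0.929 in the controls against 0.844 and 0.814 in the knockdown, a separation of the groups that was not called. Intron 1, the longest at 32134 nt, had 0.993 and 0.989 against 0.975 and 0.974 and was not called.

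**Figure D2:**
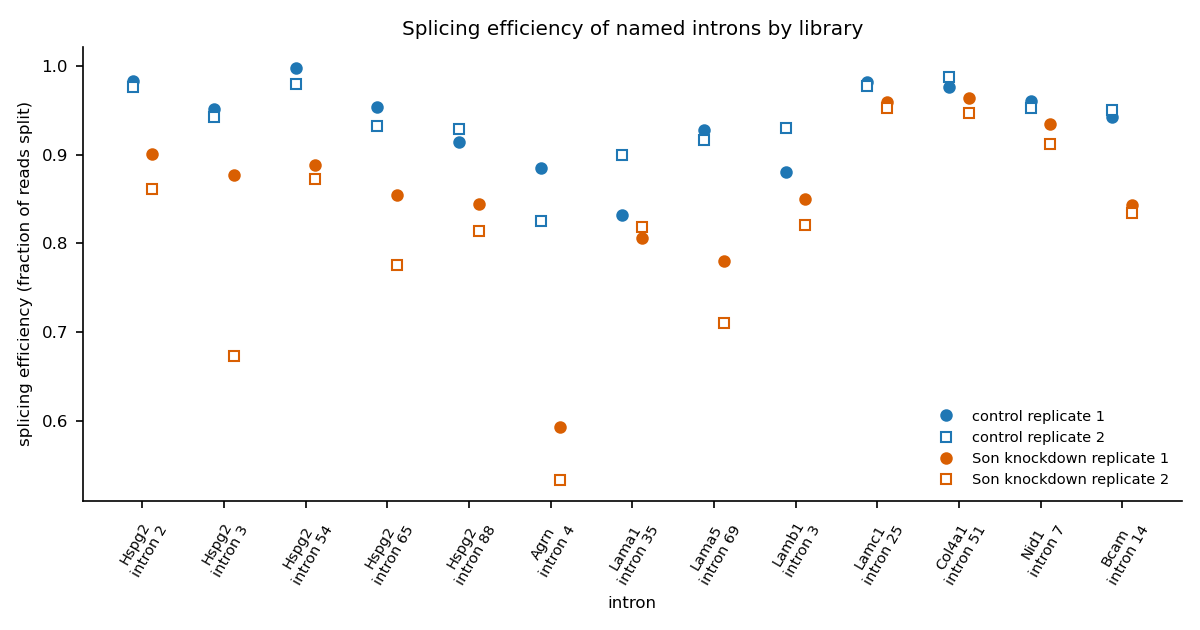
Splicing efficiency (fraction of reads split, vertical axis) in each of the 4 total RNA libraries for the introns named by rule, with the largest falls of each gene. Blue marks are controls and orange marks are knockdown, filled for replicate 1 and open for replicate 2, and *Agrn* intron 4 has the lowest knockdown values, 0.593 and 0.533.

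*Agrn* codes for agrin, a heparan sulfate proteoglycan that also organises the nerve-muscle synapse. Of all members it had the largest change in mean splicing efficiency (ENSMUSG00000041936, chromosome 4, minus strand, 30 listed introns). The mean was 0.913 and 0.903 in the controls against 0.787 and 0.766 in the knockdown, with no overlap. The log2 odds ratio over the gene was 1.78 (standard error 0.222). Both knockdown libraries were below both controls in 27 of 30 introns, of which 10 were called. Without control replicate 1 the number called was 3, without control replicate 2 it was 8, and without either knockdown library it was 9 or 10.

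The calls in *Agrn* lay in the first and middle stretches, with 5 of 12 and 5 of 10 introns, and none of the 7 introns of the last stretch was called by edgeR. Those 7 introns still had changes in splicing efficiency from −0.254 to −0.069, so the lack of calls there does not show a smaller change. Intron 4 (90 nt, chr4:156263465-156263554) had the largest fall among the members, from 0.885 and 0.825 to 0.593 and 0.533. Its unsplit reads rose alike at the 5′ junction, from 126 to 288, and at the 3′ junction, from 118 to 288. Introns 19 to 21 (86 to 139 nt, chr4:156256880-156257459) were the longest run, and the mean of intron 19 went from 0.891 to 0.604. Intron 11 (1002 nt) showed the opposite balance to *Hspg2* intron 3, since its unsplit reads went from 25 to 99 at the 3′ junction and from 4 to 3 at the 5′ junction.

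*Lama5* codes for the laminin α5 chain, which is widespread in epithelial basement membranes. Over its 76 introns (ENSMUSG00000015647, chromosome 2) mean splicing efficiency was 0.946 and 0.932 in the controls against 0.905 and 0.895 in the knockdown. Both knockdown libraries were lower than both controls, and the log2 odds ratio over the gene was 0.81 (standard error 0.204). It was 0.66 without control replicate 1 and 0.73 without knockdown replicate 2, and the gene was called in neither case. Of its 4 called introns, numbers 69 and 70 are neighbours near the 3′ end of the gene (chr2:179820423-179820802). Intron 69 (118 nt) had 0.928 and 0.916 in the controls against 0.780 and 0.710 in the knockdown. Intron 70 (91 nt) had 0.948 and 0.924 in the controls against 0.780 and 0.756 in the knockdown, so both introns separated the groups. The number of calls was 2 without control replicate 2.

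*Lama1*, *Lamb1* and *Lamc1* code for the chains of laminin-111, the earliest laminin of the mouse embryo. None of their introns was called with all libraries, and their mean splicing efficiencies overlapped between groups. *Lama1* had 0.949 and 0.944 in the controls against 0.939 and 0.945 in the knockdown. *Lamb1* had 0.927 and 0.941 against 0.935 and 0.905, and *Lamc1* had 0.962 and 0.951 against 0.958 and 0.949. The log2 odds ratios over these genes were 0.10 (standard error 0.217), 0.06 (0.246) and 0.11 (0.211), and each turned below 0 when split and unsplit reads were scaled separately, which lowered the median of all introns from 0.12 to −0.04. *Lamb1* was also below 0 without control replicate 2, at −0.0093, and without knockdown replicate 2, at −0.17, and *Lamc1* without control replicate 1, at −0.00036.

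The introns with the largest falls among the well-covered ones of these genes were not called. *Lama1* intron 35 (835 nt, chr17:68092158-68092992) went from 0.866 ± 0.048 to 0.812 ± 0.0085 (SD, n = 2 each). *Lamb1* intron 3 (3237 nt, chr12:31319192-31322428) went from 0.905 ± 0.034 to 0.835 ± 0.021, and *Lamc1* intron 25 (968 nt, chr1:153102289-153103256) from 0.980 ± 0.0035 to 0.956 ± 0.0050. *Lamb1* intron 22 had a larger fall, from 0.966 and 0.914 to 0.794 and 0.633, but on as few as 35 reads in a library, and it was not called with all libraries. *Lamc1* carries 4 introns of up to 200 nt with deep coverage. Introns 7 (88 nt) and 9 (90 nt) had 0.965, 0.952 and 0.989, 0.987 in the controls, against 0.973, 0.946 and 0.988, 0.984 in the knockdown. In both of these short introns the groups overlapped.

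*Col4a1* and *Col4a2* code for the most widespread collagen IV chains and lie head to head on chromosome 8. Their coverage was low, with 10 tested of 24 listed introns in *Col4a1* and 3 listed introns in *Col4a2*. Mean splicing efficiency of *Col4a1* was 0.954 and 0.948 in the controls against 0.941 and 0.928 in the knockdown. The knockdown libraries were the lower ones, and the log2 odds ratio over the gene was 0.37 (standard error 0.302) and not called. Its intron 51 (1775 nt, chr8:11249883-11251657) went from 0.982 ± 0.0080 to 0.956 ± 0.012 (SD, n = 2 each). A junction of it lies within the antisense gene *Gm15418* in the annotation, and whether reads were counted by strand is not given in the sources used here. *Col4a2* had between 1 and 4 unsplit reads per library, too few to show a change.

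*Nid1* codes for nidogen-1, which bridges the laminin and collagen IV networks. Mean splicing efficiency over its 17 introns was 0.969 and 0.965 in the controls against 0.972 and 0.966 in the knockdown, and the groups overlapped. The log2 odds ratio was 0.10 (standard error 0.238), and −0.065 with split and unsplit reads scaled separately. Its intron with the largest fall, number 7 (3679 nt, chr13:13652924-13656602), had 0.960 and 0.953 against 0.935 and 0.912. This intron has a junction within the antisense gene *Gm48682*.

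*Bcam* codes for the Lutheran glycoprotein, a cell-surface receptor that binds the laminin α5 chain. It had the largest share of calls among the members, 8 of 10 tested introns (ENSMUSG00000002980, chromosome 7, minus strand). Mean splicing efficiency was 0.971 and 0.967 in the controls against 0.925 and 0.919 in the knockdown, with no overlap. The log2 odds ratio over the gene was 1.47 (standard error 0.227). Introns 2 to 5 (chr7:19499442-19502376) were called as a run, with changes from −0.084 in intron 2 (1390 nt) to −0.011 in intron 3 (76 nt). Intron 14 (88 nt, chr7:19490545-19490632) had the largest fall, from 0.943 and 0.951 to 0.844 and 0.834. The single calls of this gene were fragile: neither junction alone gave any, DESeq2 gave 1, and leaving out control replicate 1, control replicate 2, knockdown replicate 1 or knockdown replicate 2 gave 0, 2, 5 and 2.

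The members differ in intron length, which the choice of genes did not use. Median length was 238.5 nt in *Hspg2*, 131.5 nt in *Agrn*, 120.5 nt in *Lama5* and 130.5 nt in *Bcam*. It was 1076 nt in *Lama1*, 998 nt in *Lamb1*, 894 nt in *Lamc1*, 755 nt in *Col4a1* and 2241 nt in *Nid1*, so every member with a call had a shorter median than these 5 members without one. Among introns of up to 200 nt, 31 of 136 of the members' were called (22.8%), against 7.42% of all introns of that length. Above that, up to 1000 nt, it was 11 of 109 (10.1%, against 1.44%), and for longer introns 4 of 91 (4.4%, against 0.221%). The members' introns were also deeper. Up to 200 nt, their median in the least covered library was 368 reads, against 154 for all introns. It was 283 against 157 up to 1000 nt, and 214 against 140 for longer introns. The choice of the genes already contains these comparisons of calls. Between genes, the counts of calls among short introns differed. *Lama5* had 53 short introns with 2 called, while *Agrn* had 22 with 9 called and *Hspg2* 41 tested with 15 called. Depth differed too, with medians of 312, 142 and 908 reads in the least covered library of these introns. Their median changes in splicing efficiency were −0.0211, −0.109 and −0.0219. *Lama5* and *Hspg2* were thus close there, with median log2 odds ratios of 0.764 and 1.12. The part of depth in the calls was not tested. The *Lama1*, *Lamb1*, *Lamc1* and *Col4a1* genes had 14 tested short introns with none called by edgeR.

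GC content of the flanking exons, taken over up to 100 nt on each side, also differed. Its median was 60.5% in *Hspg2*, 59% in *Agrn*, 59.5% in *Lama5* and 58.5% in *Bcam*, against 50.5% over all tested introns. The values were 53% in *Lama1* and *Lamb1*, 53.5% in *Lamc1* and 56.8% in *Nid1*. *Col4a1*, with 60.3%, had no call, but its coverage was low. Its 10 tested introns had a median of 32.5 reads in the least covered library, against 836 in *Hspg2*. Inside *Hspg2*, called and other tested introns had medians of 60% and 60.8%, so called introns there did not have the higher exon GC content. Over the members the medians were 59% and 58%, and over all tested introns 56.5% and 50.3%, higher in called introns. The part of GC content in the calls was not tested.

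**Figure D3:**
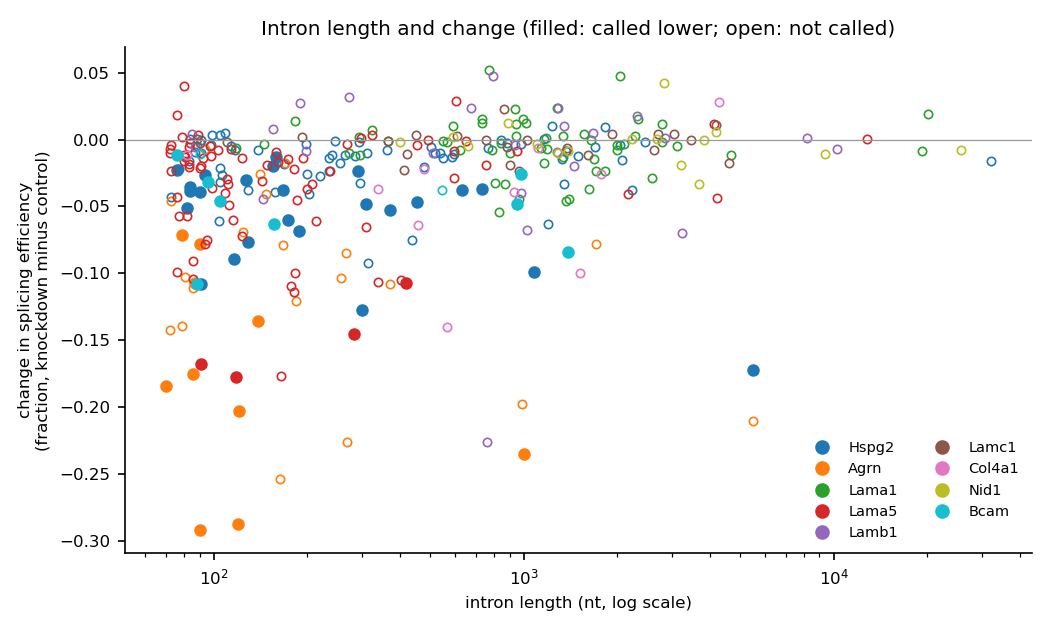
Intron length in nt (logarithmic horizontal axis) against the change in splicing efficiency (knockdown minus control, as a fraction) for the members' tested introns, 1 colour per gene. Filled points are called lower and open points are not called. The deepest falls are *Agrn* introns, at lengths where most *Lama5* introns and the 4 short *Lamc1* introns were not called.

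Spliced reads per gene, the split reads at 5′ junctions summed over a gene's introns, gave an approximate measure of mature RNA. The same split reads enter splicing efficiency, so this measure is not independent of it, and partly spliced RNA is counted as well. The edgeR test called 3 members with fewer such reads and 0 with more, against 6.76% and 1.96% of all genes; at an unadjusted p under 0.05 there were 3 and 1, and by DESeq2 3 and 0. In bulk samples, fewer cells that express a gene and less RNA per cell cannot be told apart. *Bcam* had 509 and 541 CPM in the controls against 256 and 253 in the knockdown. *Agrn* had 331 and 343 CPM against 223 and 203, and *Hspg2* had 5049 and 5413 CPM against 3974 and 3998. In each of the 3 genes both knockdown libraries lay below both controls, with log2 fold changes of −1.04 (standard error 0.072), −0.66 (0.078) and −0.39 (0.059). Such separation was also seen in members not called: *Lama5* and *Col4a2* lay below both controls, and *Lama1*, *Lamb1* and *Nid1* above. Its share over all genes was not counted. Counted at its best covered intron alone, *Hspg2* had a log2 fold change of −0.24 and was not called.

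*Lama5* was called lower in splicing efficiency and was not called in spliced reads. It had 1266 and 1321 CPM in the controls against 1261 and 1229 in the knockdown, a log2 fold change of −0.06 (standard error 0.063). Both knockdown libraries were below both controls, but the fitted change was smaller than its standard error. Its unsplit reads on the CPM scale went from 117 and 151 to 219 and 237, a ratio of 1.70. For comparison, unsplit reads changed by ratios of 2.22 in *Agrn*, 1.67 in *Hspg2* and 1.35 in *Bcam*, while spliced reads changed by 0.631, 0.762 and 0.485. *Bcam* thus had the smallest gain of unsplit reads and the largest loss of spliced reads among the genes called lower in splicing efficiency.

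The laminin-111 chains, collagen IV and nidogen had log2 fold changes of spliced reads from −0.10 in *Col4a2* to 0.22 in *Lamb1*, none of them called. *Lamb1* had 144 and 153 CPM in the controls against 175 and 171 in the knockdown, above the controls in both libraries. It was called without knockdown replicate 1 (0.20) and without knockdown replicate 2 (0.24), and *Nid1*, at 0.15 with all libraries, was called without knockdown replicate 2 (0.20). *Lamc1* turned from 0.02 to −0.039 without knockdown replicate 1, and *Col4a1* from 0.09 to −0.058 without knockdown replicate 2. Per listed intron, a scale that does not grow with the number of introns, control levels were highest in *Hspg2* with 55.7 ± 2.74 CPM and *Bcam* with 52.5 ± 2.26 (SD, n = 2 each), which did not differ beyond their spread. *Lamc1* followed with 38.9, *Nid1* with 18.1, *Lama5* with 17.0, *Agrn* with 11.2, *Lama1* with 9.85, *Lamb1* with 5.72, *Col4a1* with 3.02 and *Col4a2* with 1.78.

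**Figure D4:**
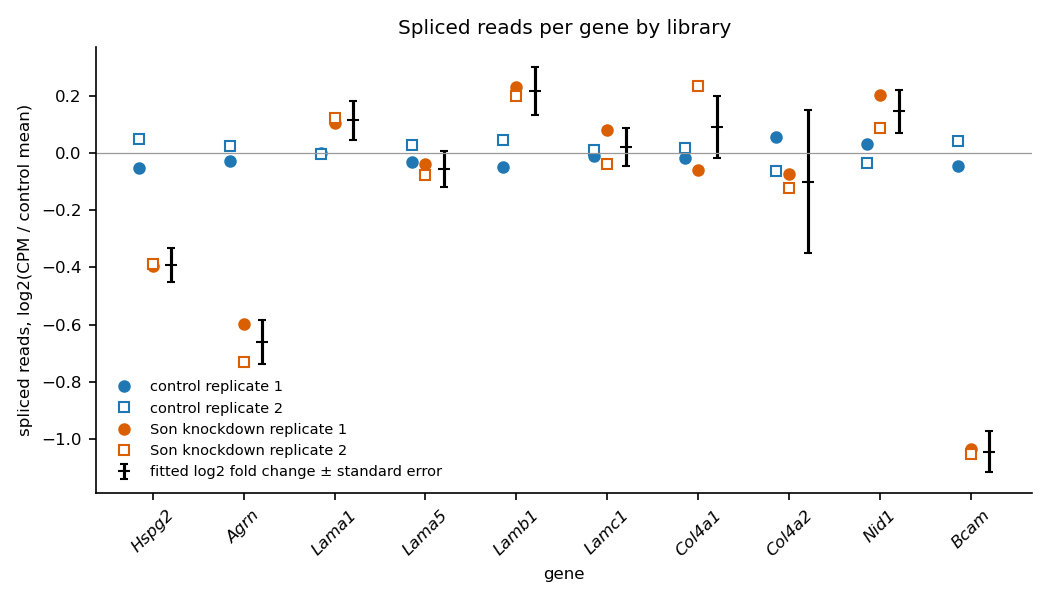
Spliced reads of each member in each total RNA library, as log2 of CPM over the control mean, with the fitted log2 fold change and its standard error in black. Blue marks are controls, orange marks knockdown, filled for replicate 1 and open for replicate 2. *Bcam*, *Agrn* and *Hspg2* lie furthest below the controls in both knockdown libraries. The other genes have fitted changes from −0.10 in *Col4a2* to 0.22 in *Lamb1*, none of them called.

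The long reads gave another RNA fraction and assay, with 1 library per group and therefore no replicate check. The control library held 3080426 reads and the knockdown library 1874851. The descriptions of both libraries name the same knockdown sample as starting material, against the treatment label of the control. *Son* was lower in the library labelled knockdown, with 37 reads (19.7 CPM, 95% Wilson interval 14.3 to 27.2) against 217 (70.4 CPM, 61.7 to 80.5). *Bcam* had 247 reads in the control and 51 in the knockdown, or 80.2 CPM (70.8 to 90.8) and 27.2 CPM (20.7 to 35.8). It was the only member at least 2-fold lower, a size reached by 4.16% of the genes with at least 20 long reads, and none was 2-fold higher (2.2% of genes). *Hspg2* had 170 and 56 reads, or 55.2 CPM (47.5 to 64.1) and 29.9 CPM (23.0 to 38.8), a log2 ratio of −0.88. For both genes the intervals, which cover counting error only, did not overlap. How many of all genes had intervals apart was not counted. Of the *Hspg2* transcripts, ENSMUST00000030547 had 96 and 38 reads and ENSMUST00000171332 had 74 and 18, with log2 ratios of −0.61 and −1.29. Intervals overlapped for ENSMUST00000030547 (25.52 to 38.05 against 14.77 to 27.82 CPM) and were apart for ENSMUST00000171332. These models are 14187 and 14176 nt long, and how surely reads were assigned between them was not tested.

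The other members had overlapping intervals. *Agrn*, with fewer spliced reads in total RNA, had 40 and 22 long reads and a log2 ratio of −0.13, with intervals of 9.54 to 17.7 and 7.75 to 17.8 CPM that are too wide to show or exclude the change seen there. *Lama5* had 61 and 40 reads (log2 ratio 0.11), *Lama1* 58 and 38 (0.11), *Lamb1* 33 and 28 (0.48), *Lamc1* 112 and 85 (0.32), *Nid1* 102 and 63 (0.03) and *Col4a1* 28 and 13 (−0.36). *Col4a2* had 5 and 6 reads. Reads on annotated retained-intron transcripts were 37 of 856 over all members in the control (4.32%, interval 3.15 to 5.90). In the knockdown they were 19 of 402 (4.73%, 3.05 to 7.26), and the intervals overlapped. Only annotated models can take such reads, and *Hspg2* and *Lama5* had 0 reads on them in both libraries. The share therefore cannot show whether the introns called lower in these genes were retained in long reads.

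**Figure D5:**
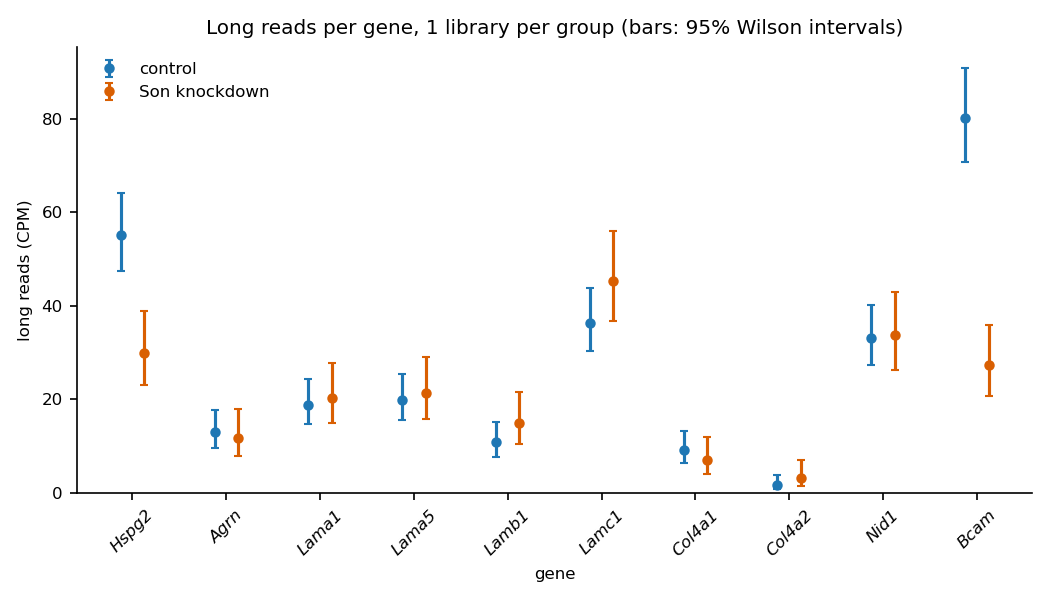
Long reads of each member in CPM (vertical axis, from 0) in the control library (blue) and the knockdown library (orange), with bars for the 95% Wilson interval of counting error. The intervals are apart for *Hspg2*, at 55.2 against 29.9 CPM, and *Bcam*, at 80.2 against 27.2 CPM.

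Other genes of basement membrane biology were counted from fixed lists, at adjusted p-values from the edgeR tests over all genes. Of 18 receptors and adhesion partners tested, 4 were called lower in splicing efficiency, against 6.98% of all genes, and 0 higher, against 0.128% (also 0 higher at an unadjusted p under 0.05 and by DESeq2). The list had a median log2 odds ratio of 0.11 against 0.09 over all genes. The 4 called lower were *Itgb4*, *Tln1* and, named after their values were seen, *Itga5* and *Gpc1*. *Itgb4*, which codes for the integrin β4 chain of laminin receptors, had a log2 odds ratio of 1.60 (standard error 0.273, adjusted p = 4.42e-07), and 51.6 and 55.2 CPM of spliced reads in the controls against 40.3 and 37.7. *Tln1*, which codes for talin, the protein that links integrins to actin, had a log2 odds ratio of 0.91 (0.217, adjusted p = 0.000813), and 641 and 719 CPM against 494 and 479 (adjusted p = 0.000104). Spliced reads were fewer in 3 and more in 2 of 20 genes of this list, against 6.76% and 1.96% of all genes. *Sdc4*, a cell-surface heparan sulfate proteoglycan, had 137 and 167 CPM in the controls against 168 and 248 in the knockdown, so knockdown replicate 1 lay close to control replicate 2. Its log2 fold change was 0.45 (adjusted p = 0.0286). With 1 library left out it was 0.15 to 0.72, and it was not called without control replicate 1 or without knockdown replicate 2. *Itgav*, an integrin α chain, rose by 0.36 on the log2 scale (adjusted p = 0.0162).

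Among 10 other structural genes tested, *Lamb2*, which codes for the laminin β2 chain and has a median intron of 87 nt, was the only one called lower in splicing efficiency, with a log2 odds ratio of 0.86 (standard error 0.279, adjusted p = 0.0339), against 6.98% of all genes. With 1 library left out its log2 odds ratio was 0.55 to 1.15, and it was called only without knockdown replicate 1. None of 11 genes of this list was called in spliced reads by edgeR or DESeq2, with 1 fewer and 1 more at an unadjusted p under 0.05. In collagen and laminin biosynthesis, 3 of 18 genes were called lower in splicing efficiency, against the same 6.98% of all genes: *Pomgnt1* (1.72, adjusted p = 1.71e-06) and *Pomt1* (0.98, adjusted p = 0.0216), both enzymes of the sugar chains by which dystroglycan binds laminin, and *Plod3* (0.73, adjusted p = 0.0496), a collagen lysine hydroxylase named after its values were seen. Spliced reads fell in *Pomt1* by 0.70, in *Pomgnt1* by 0.50 and in *P3h4* by 1.22 on the log2 scale (adjusted p = 0.00258, 0.0305 and 0.0175). They rose by 0.33 in *Mia3* (adjusted p = 0.012), a cargo receptor for export of collagen from the endoplasmic reticulum. None of 15 genes of heparan sulfate synthesis, the sugar chains of perlecan and agrin, was called in splicing efficiency by edgeR or DESeq2, nor was any at an unadjusted p under 0.05. There *B3gat3* had fewer spliced reads (−0.68, adjusted p = 0.0478) and *Sulf2* more (0.29, adjusted p = 0.00655).

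These counts moved with the libraries. The 8 splicing calls of the lists became 2 without control replicate 1, 3 without control replicate 2, 4 without knockdown replicate 2 and 7 without knockdown replicate 1. The 11 calls in spliced reads became 1, 3, 10 and 20 in the same order. *Itgb4* and *Pomgnt1* in splicing efficiency and *Tln1* in spliced reads were called in each of these 4 fits. Every other call of a named gene of these lists was lost in at least 1 of them.

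Genes were ranked by the share of tested introns called lower, over 510 genes with at least 20 tested introns, of which 437 had none. Intron length and depth were not matched in this ranking. Outside the members the largest shares were in *Map4k1* (47.8%), *Flna* (36.6%), *Rtel1* (36.4%), *Sbf1* (34.6%) and *Piezo1* (34.1%). *Agrn* ranked 6 with 33.3%, *Hspg2* ranked 9 with 26.4% and *Lama5* ranked 46 with 5.26%. *Bcam* had too few tested introns to be ranked. By number rather than share, *Hspg2* had 24 introns called of 91 tested, against 15 of 41 in *Flna*, which codes for the actin crosslinker filamin A.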

How the data were processed

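The authors used SPLICE-q on total RNA, per the labels, and deposited its read counts, split and unsplit, for the 5′ and the 3′ junction of each intron, with a score that is a fraction from 0 to 1. Checked on the files, this deposited fraction equals split over all junction reads, and no listed junction had under 10 reads. For long reads, the authors deposited counts per transcript. The submitters' processing notes name GRCm39, SAMtools and minimap2; the annotation and the strand setting are not given in the sources used here. Both long-read descriptions name the same knockdown sample as starting material, the control's too, so no pairing between assays was used.

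Repeated introns were reduced to 1 entry, leaving 85015, of which 68322 were in all 4 libraries; 681 listed under more than 1 gene stayed out of gene sums. Genes were named and introns numbered by identifier in GENCODE M21, where 99.8% of matched introns had the same length. edgeR 4.0.16 in R 4.3.3 fitted split and unsplit columns with a term per library, unsplit reads, and unsplit reads in the knockdown (tested), with a minimum of 10 split and 10 unsplit reads in all and a threshold of 0.05 on Benjamini-Hochberg adjusted p. Spliced reads used TMM and the default filter. A read across an intron counts at both junctions, so single junctions were tried. Fits were tested on simulated data. With 2 against 2 samples, standard errors rest on the spread shared over genes. For long reads, CPM ratios had a pseudocount of 0.5 and needed 20 reads over both libraries; intervals came from scipy 1.17.1. DESeq2 1.42.0 served as an alternative, with other minimums, scalings, the replicate block and each library left out.

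All 10 members and *Son* are named. So are the 5 largest falls of *Hspg2* introns and the largest of each other member, among introns with 50 or more reads per library. The longest run of calls per gene and up to 4 called genes per list by change in spliced reads are named too. The 5 genes outside the members with the largest share of introns called lower are given, among genes with at least 20 tested introns. *Itga5*, *Gpc1*, *Plod3*, *Hspg2* intron 11, *Agrn* intron 11, *Lamb1* intron 22 and *Lamc1* introns 7 and 9 fall outside this rule and were named after their values were seen. The members, lists and rules were chosen with earlier results of these data known. Replicate numbers come from the sample titles. Deviations of samples with the same number correlated at 0.008 over introns and 0.017 over genes, and the numbers were not taken as pairs. These correlations do not register a shift shared by all introns or genes. Mean splicing efficiency over all introns was higher in replicate 1 than in replicate 2 of both groups. It was 0.903 against 0.893 in the controls and 0.893 against 0.875 in the knockdown. Whether the numbers mark pairs is therefore not known.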

Additional observations from a re-analysis of the deposited data

How the results depend on the processing

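The 46 intron calls of the members became 22 with the 3′ junction alone, 11 with the 5′ junction alone, 17 with DESeq2, and 9 to 47 when 1 library was left out. They were 46 with at least 50 reads in every library, 45 with no minimum and 42 with split and unsplit reads scaled separately. With the replicate number as a block there were 63, which held the 46, but whether the numbers pair the samples is not known. In the fit with this block the gene-level calls of the members stayed at 4 and 3. The lists had 10 and 12 there, and *Hspg2* intron 88 was called. The 4 members called lower in splicing efficiency became 2 to 4 when 1 library was left out, and the 3 called in spliced reads became 3 to 5. The 8 list genes called in splicing efficiency became 3 with the 3′ junction, 4 with the 5′ junction, 4 with DESeq2 and 2 to 7 with 1 library left out. The 11 in spliced reads became 7 with DESeq2, 1 at the best covered intron and 1 to 20 with 1 library left out. Uncalled values that changed sign were the log2 odds ratios of *Lama1* (−0.056), *Lamb1* (−0.107), *Lamc1* (−0.0471) and *Nid1* (−0.0648) under separate scaling, *Lamb1* at the 3′ junction (−0.0769) and with 1 library left out (−0.174 to 0.302, with −0.00933 among them) and *Lamc1* likewise (−0.000361 to 0.223), and the log2 fold changes of *Lamc1* (−0.0386 to 0.0827) and *Col4a1* (−0.0583 to 0.236) with 1 library left out and of *Col4a1* at its best covered intron (−0.107). The cause was not tested. The single long-read gene at least 2-fold lower was 1 under each of the 3 alternatives tried. Fits that leave out a library have 1 sample in a group, which is assumed to vary like the others. Few unsplit reads limit *Col4a1* and *Col4a2*.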
